A study of Homo sapiens with 36 samples.

Results

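HCT-15, a cell line from a human colorectal adenocarcinoma, was compared with 5 other colon cancer lines in the untreated state, that is, after 24 h in DMSO, the solvent used for the drug JQ1. The members were the 3 libraries labelled HCT-15 DMSO, chosen from the labels alone, of 36 libraries in the series and of 18 DMSO libraries. They were set against the DMSO libraries of HCT 116, SW 480, HT-29, COLO 205 and COLO 320, 3 of each and 15 in all. The labels give no genotype, added allele or other agent for any of these groups, and all 6 lines carried the same solvent. The remaining 18 libraries came from the same lines after 24 h with 0.5 µM JQ1, an inhibitor of the BET bromodomain proteins, which read acetylated chromatin, and were used here as a separate set in which to repeat the comparison. RNA was taken from cells in log-phase growth and sequenced from a TruSeq library, and the values are RPKM, reads scaled to gene length and to the size of the library.

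As background, colon cancer lines keep parts of the programme of the colon lining, such as cadherin junctions, keratins and intestinal transcription factors, and lose other parts, among them mucins and absorptive enzymes. HCT-15 is known as a mismatch repair deficient line with a defect in MSH6, and for resistance to several drugs through the efflux pump ABCB1. Each line descends from the tumour of 1 patient, so the comparison is of 1 line with 5 others. It carries no information on the spread among lines that share a property with HCT-15.

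The 18 DMSO libraries held 20.2 to 26.3 M reads in genes and the HCT-15 libraries 23.7 to 26.2 M. These totals are sums of whole reads worked back from the spacing of each gene's RPKM values. The authors' divisor was not the read total: HCT-15 had 0.878 to 0.880 reads per unit of divisor, the lowest of the 6 lines, and COLO 205 had 0.999 to 1.00, the highest. With the read total as divisor, HCT-15 values would rise against every other line, and the effect on the counts is given in the closing section. In a 1 kb gene a single read adds 0.0335 to 0.0495 RPKM. The labels do not say whether replicates were separate cultures, so each p-value measures only the spread between these libraries, which may be technical. Because RNA came from whole cultures, fewer cells expressing a gene and less RNA per cell cannot be told apart.

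The differences between HCT-15 and the other lines covered most genes and were mostly small. Of 15145 genes tested with limma on log2(RPKM + 0.5), 5932 (39.2%) were higher and 7120 (47.0%) lower in HCT-15 than in the mean of the 5 other lines at an adjusted p under 0.05. A change of at least 2-fold was found for 937 genes (6.19%) that were higher and for 1491 genes (9.84%) that were lower in HCT-15. The median difference over all genes was −0.06 on the log2 scale. A mean of 5 lines can rest on 1 of them, so genes were also counted as set apart where HCT-15 lay beyond every other line. This count asked for an adjusted p under 0.05 in all 5 pairwise contrasts, all of the same sign, and a log2 difference of at least 1 to the nearest line, called the gap below. By that rule 94 genes (0.621%) were higher and 97 genes (0.640%) were lower in HCT-15. These tests take libraries as the unit. With the line as the unit, 1 against 5, limma called 0 genes at an adjusted p under 0.05 and 218 at an unadjusted p under 0.05, so the calls describe these 6 lines and not colon lines at large.

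HCT-15 had the smallest number of genes set apart among the 6 lines. The same rule gave 191 genes in both directions for HCT-15, against 428 for HCT 116, 582 for HT-29, 698 for SW 480, 919 for COLO 205 and 1448 for COLO 320. In pairwise contrasts of at least 2-fold, HCT-15 differed least from HCT 116, with 1118 genes higher and 1541 lower in HCT-15. It differed most from COLO 205, with 1892 genes higher and 2434 lower, and from COLO 320, with 2054 genes higher and 2268 lower. No test was made of these counts between lines, because each line enters 1 count.

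**Figure D1:**
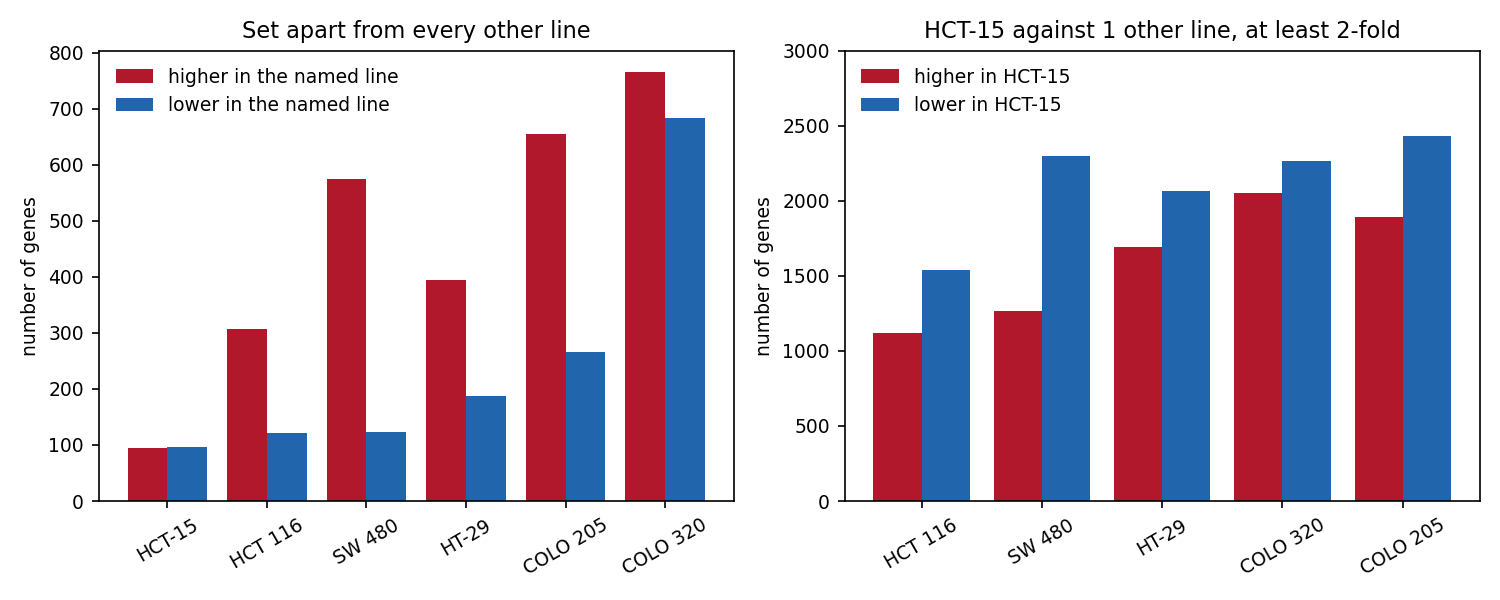
Left, the number of genes (vertical axis) set apart from every other line in DMSO, for each of the 6 lines, higher in red and lower in blue: HCT-15 has 94 and 97, the smallest sum. Right, the number of genes at least 2-fold higher (red) or lower (blue) in HCT-15 than in 1 other line, from 1118 and 1541 against HCT 116 to 2054 and 2268 against COLO 320.

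The genes lower in HCT-15 than in any other line were led by several that were near 0 in HCT-15 and plainly expressed elsewhere. CDKN2A (Entrez 1029, chromosome 9), whose products include inhibitors of the cell cycle kinases CDK4 and CDK6, had 0.0356, 0.0511 and 0.0161 RPKM in the 3 HCT-15 libraries, from 6 reads in all. It averaged 16.1 ± 1.59 RPKM in HCT 116, 16.1 ± 1.59 in SW 480, 68.2 ± 1.54 in HT-29, 21.3 ± 1.63 in COLO 205 and 12.7 ± 0.74 in COLO 320 (SD, n = 3 each). No HCT-15 library came near the lowest of the 15 other libraries, 12.3 RPKM, and the gap was −4.62 (largest adjusted p of the 5 contrasts 3.01e-18).

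ANO6 (Entrez 196527, chromosome 12), a membrane protein that scrambles phospholipids and conducts ions, showed the same separation. Its HCT-15 libraries had 0.0310, 0.0148 and 0.00469 RPKM, from 10 reads, and the 15 other libraries ran from 11.9 through a median of 16.7 to 22.9 RPKM. The groups did not overlap, and the gap was −4.63. ZNF512 (Entrez 84450, chromosome 2), a zinc finger protein, had 0.0324, 0.0206 and 0 RPKM in the HCT-15 libraries, against 8.89 to 29.4 RPKM, median 13.2, in the other 15. Its gap was −4.19, and again no library of another line fell into the range of HCT-15.

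The promoter windows of these 3 genes are shown because, among the genes near 0 in HCT-15 for which a window was available, these had the highest level in the lowest of the 5 other lines. Each runs from 250 bases before to 50 bases after a gene start in RefSeq, build GRCh38.p14, written 5′ to 3′ on the gene's strand, with every CpG in capitals. The window of CDKN2A covers chr9:21995275-21995574 on the minus strand and 1 of the known starts of the gene, that of ANO6 chr12:45292440-45292739 on the plus strand, and that of ZNF512 chr2:27582792-27583091 on the plus strand.
CDKN2A: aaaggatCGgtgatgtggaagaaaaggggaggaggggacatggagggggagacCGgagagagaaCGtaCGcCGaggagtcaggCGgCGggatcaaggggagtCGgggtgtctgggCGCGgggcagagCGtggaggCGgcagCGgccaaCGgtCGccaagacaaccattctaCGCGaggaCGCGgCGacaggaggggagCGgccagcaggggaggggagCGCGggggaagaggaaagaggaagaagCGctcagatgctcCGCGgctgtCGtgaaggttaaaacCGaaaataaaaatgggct
ANO6: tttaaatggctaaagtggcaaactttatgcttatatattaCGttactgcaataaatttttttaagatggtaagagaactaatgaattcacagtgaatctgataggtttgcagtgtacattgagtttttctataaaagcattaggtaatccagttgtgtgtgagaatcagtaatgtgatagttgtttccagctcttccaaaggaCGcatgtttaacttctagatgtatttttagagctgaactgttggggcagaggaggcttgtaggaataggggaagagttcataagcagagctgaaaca
ZNF512: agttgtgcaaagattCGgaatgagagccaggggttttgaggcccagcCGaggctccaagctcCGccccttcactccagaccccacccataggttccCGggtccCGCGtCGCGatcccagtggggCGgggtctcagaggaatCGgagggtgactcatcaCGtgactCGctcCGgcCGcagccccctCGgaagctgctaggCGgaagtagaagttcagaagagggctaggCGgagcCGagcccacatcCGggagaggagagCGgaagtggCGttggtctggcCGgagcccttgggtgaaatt

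The windows differ in CpG content: CDKN2A holds 28 CpG, ZNF512 holds 22 and ANO6 holds 2. The observed over expected CpG ratio was 1.13, 0.731 and 0.235 in the same order. Only 1 window per gene was used, so CpG at any other start of these genes was not counted. In all, 15 genes averaged under 0.1 RPKM in HCT-15 and at least 1 RPKM in each other line, and 13 of them had a window. Their ratio had a median of 0.827, against 0.834 over the 11208 tested genes with a window, and 84.6% of them were above a ratio of 0.6, against 80.9% of all. The CpG content of the near 0 genes was thus close to that of tested genes as a whole. No methylation was measured.

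The other near 0 genes have varied roles. MAOA, the mitochondrial enzyme that oxidises serotonin and noradrenaline, had 0.0273, 0 and 0.0247 RPKM in the HCT-15 libraries, against 3.81 to 12.04 RPKM in the 15 others. MTERF1, which binds mitochondrial DNA and terminates its transcription, had 0 reads in all 3 HCT-15 libraries. With 3 reads over the group as the limit that a count of 0 allows, it was at least 172-fold lower than in COLO 205, the line nearest to it, which had 2.80 ± 0.20 RPKM (SD, n = 3). RIBC2, a protein of ciliary microtubules, also had 0 reads and was at least 84.0-fold lower than in HT-29, the lowest of the other lines at 2.12 ± 0.29 RPKM. Such limits cover counting error only.

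ST6GAL1, which adds sialic acid to N-glycans, had 1 read in the 3 HCT-15 libraries together, against 2.34 to 21.6 RPKM in the other 15 libraries. SMARCA1, a chromatin remodelling ATPase, also had 1 read, against 1.12 ± 0.16 RPKM in COLO 205 and 16.9 to 37.5 RPKM as means of the other lines. The calcium pump gene ATP2A3 had 21 reads and 0.0509 ± 0.0129 RPKM in HCT-15, against line means of 1.48 to 26.6 RPKM. H2AJ, a histone H2A variant, had 2 reads and MRI1, an enzyme of methionine salvage, had 10 reads in HCT-15. The zinc finger genes ZNF22, ZNF302, ZNF614 and ZNF572 had 3, 4, 12 and 1 reads in HCT-15, and line means of 1.08 RPKM or more in every other line. All 15 genes kept a mean under 0.1 RPKM in the HCT-15 libraries with JQ1.

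Other genes set apart on the low side had a measurable level in HCT-15. TNIK, a kinase that binds the Wnt effector TCF4, averaged 0.230 ± 0.0183 RPKM in HCT-15 and 7.95 to 37.9 RPKM in the other lines, a gap of −3.53. PLIN2, which coats lipid droplets, had 0.106, 0.169 and 0.0960 RPKM in the HCT-15 libraries, against 3.03 to 105 RPKM in the other 15. DHRS3, a retinal reductase, averaged 0.713 ± 0.128 RPKM in HCT-15 and 7.81 to 33.5 RPKM elsewhere. In each of these genes, which were chosen by their gap, the 3 HCT-15 libraries lay below all 15 others.

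RPP25, a subunit of ribonuclease P, averaged 0.310 ± 0.064 RPKM in HCT-15 and 4.47 to 44.7 RPKM in the other lines (gap −2.62). FGFR4, a receptor for FGF19, had 0.930, 0.889 and 0.822 RPKM in the HCT-15 libraries, against 6.84 to 43.6 RPKM in the other 15 libraries (gap −2.56). Its ligand FGF19 was also low in HCT-15, at 0.0218 ± 0.0084 RPKM, but COLO 320 had 0 reads of it, so it was not set apart. MIR1204, a short gene within PVT1, met the rule with 1 read in HCT-15. Its libraries in other lines varied widely (7.45 ± 4.02 RPKM in HCT 116, SD, n = 3), and in the JQ1 libraries its gap was −0.80, so its value is uncertain.

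**Figure D2:**
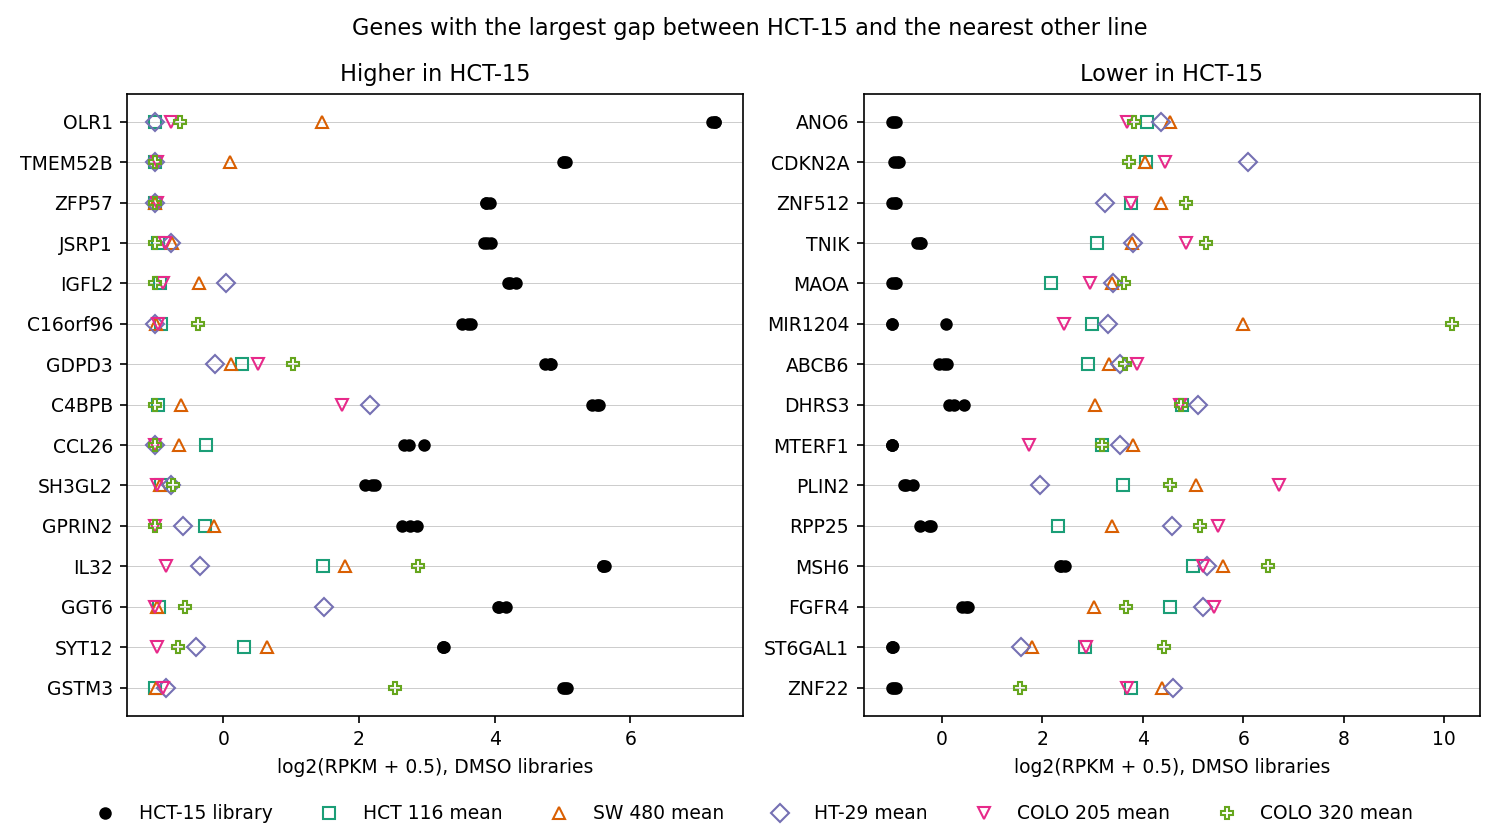
Levels on a log2(RPKM + 0.5) axis of the 15 genes with the largest gap on the high side (left) and the 15 with the largest gap on the low side (right), with the 3 HCT-15 libraries as black dots and the mean of each other line as an open symbol. OLR1 stands farthest from the nearest line on the high side (gap 5.79) and ANO6 and CDKN2A on the low side (gaps −4.63 and −4.62).

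OLR1 had the largest gap on the high side. This gene (Entrez 4973, chromosome 12) encodes the lectin-like receptor for oxidised LDL and is known mainly from endothelium and macrophages. It had 152, 152 and 147 RPKM in the 3 HCT-15 libraries, and the 15 other libraries ran from 0 through a median of 0 to 2.41 RPKM, with the highest values in SW 480. The groups were separated by a gap of 5.79 (adjusted p = 5.85e-17 against SW 480). TMEM52B, a membrane protein gene, overlaps OLR1 in the RefSeq annotation, and reads in the shared stretch cannot be told apart. It had 32.8, 31.9 and 31.6 RPKM in HCT-15, against 0 to 0.637 RPKM in the other 15 libraries.

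ZFP57, a zinc finger protein that holds DNA methylation at imprinted loci, was read almost only in HCT-15 among these 18 libraries. It had 14.1, 14.1 and 14.7 RPKM in HCT-15, against a highest value of 0.0216 RPKM in the other 15 libraries and 0 reads in 4 of the 5 lines. Its gap of 4.87 barely differed from the JQ1 value of 4.90. Of the 13 imprinted genes tested, 5 were called higher and 7 lower in HCT-15, with a median of −0.40. Over all genes tested 39.2% were called higher and 47.0% lower, with a median of −0.06. Every list count below is to be read beside these shares. H19, a maternally expressed long noncoding RNA, averaged 13.3 ± 0.559 RPKM in HCT-15 and 0.0304 to 8.98 RPKM in the other lines. The paternally expressed growth factor gene IGF2, its neighbour, averaged 0.0384 ± 0.0235 RPKM in HCT-15, against 2.61 to 14.2 RPKM in HCT 116, SW 480 and HT-29 and under 0.1 RPKM in COLO 205 and COLO 320. SGCE had 0 reads in HCT-15 and HT-29 and PEG10 averaged 0.0367 ± 0.0172 RPKM in HCT-15, while HCT 116 and COLO 320 had 6.36 RPKM or more of both genes.

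Genes of secreted immune proteins appeared among the 15 with the largest gaps. IL32, a cytokine, had 47.8, 48.1 and 48.8 RPKM in the HCT-15 libraries, against 0 to 7.10 RPKM in the other 15. C4BPB, the beta chain of the complement inhibitor C4b-binding protein, averaged 44.7 ± 1.55 RPKM in HCT-15, 3.995 ± 0.19 in HT-29, 2.85 ± 0.16 in COLO 205 and under 0.2 RPKM in the other 3 lines (SD, n = 3 each). CCL26, an eosinophil chemokine, averaged 6.44 ± 0.767 RPKM in HCT-15 and 0.336 ± 0.080 RPKM in HCT 116, its nearest line. In all 3 genes, which were chosen by their gap, the HCT-15 libraries lay above every other library, with gaps of 2.74, 3.33 and 3.05.

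Several genes better known from other tissues were also set apart. JSRP1, a protein of the muscle sarcoplasmic reticulum, averaged 14.3 ± 0.549 RPKM in HCT-15 and under 0.1 RPKM in every other line. SH3GL2, the synaptic endophilin, averaged 4.01 ± 0.241 RPKM in HCT-15 and at most 0.0991 RPKM elsewhere. SYT12, a synaptotagmin, averaged 8.96 ± 0.0511 RPKM in HCT-15 and 1.06 ± 0.070 RPKM in SW 480, the nearest line. GPRIN2, a partner of G proteins in neurite growth, averaged 6.23 ± 0.516 RPKM in HCT-15 and at most 0.407 RPKM elsewhere.

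IGFL2, of the IGF-like family, averaged 18.5 ± 0.752 RPKM in HCT-15 and at most 0.532 RPKM in another line (HT-29). C16orf96 averaged 11.6 ± 0.528 RPKM in HCT-15 and at most 0.271 RPKM elsewhere. GDPD3, a lysophospholipase D, had 27.9, 26.3 and 27.7 RPKM in the HCT-15 libraries and at most 1.68 RPKM in the other 15. GGT6, of the gamma-glutamyltransferase family, averaged 16.6 ± 0.722 RPKM in HCT-15 and 2.31 ± 0.12 RPKM in HT-29, with less than 0.2 RPKM in the other lines. GSTM3, a glutathione transferase, averaged 32.4 ± 0.603 RPKM in HCT-15 and 5.26 ± 0.17 RPKM in COLO 320, and was under 0.1 RPKM in the remaining 4 lines.

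Over all 94 genes set apart on the high side, the median level was 6.67 RPKM in HCT-15 and 1.33 RPKM in the highest other line. Over the 97 on the low side, the median was 0.775 RPKM in HCT-15 and 4.47 RPKM in the lowest other line. A gap of at least 2 on the log2 scale was found for 29 genes on the high side and 26 on the low side. Genes were tested if they had at least 1 RPKM in at least 3 of the 18 DMSO libraries. TMEM52B, ZFP57, JSRP1, IGFL2, C16orf96, CCL26, SH3GL2 and GPRIN2 passed that filter through HCT-15 only, which set their higher direction. The same holds below for CXCL5, MT1M, SCG5, CLDN5, RASIP1 and IZUMO1. In turn, the 15 genes near 0 in HCT-15 passed through other lines only. Of the 191 genes, 49 overlap another gene of the table in the RefSeq annotation, and strand was not stated for the libraries, so part of their reads may belong to the partner.

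The repair of DNA mismatches starts with MutS dimers, which find the mismatch, and MSH6 and MSH3 are alternative subunits of these dimers. MSH6 (Entrez 2956, chromosome 2) had 4.69, 4.98 and 4.61 RPKM in the HCT-15 libraries, against 31.3 ± 0.47 in HCT 116, 47.9 ± 1.6 in SW 480, 38.4 ± 1.1 in HT-29, 36.2 ± 0.95 in COLO 205 and 89.5 ± 0.77 in COLO 320 (SD, n = 3). It was the only gene of the 25 tested repair and polymerase genes that was set apart, with a gap of −2.60 (largest adjusted p = 1.69e-19) and 1752 reads in HCT-15. MSH6 was thus low but clearly detected. It overlaps FBXO11, which lies on the other strand and had 15.2 RPKM in HCT-15.

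MSH3 averaged 11.9 RPKM in HCT-15, within the line means of 1.09 to 12.5 RPKM. POLE, the catalytic subunit of the leading strand polymerase, averaged 13.9 ± 0.266 RPKM in HCT-15, within the range of 12.4 to 28.8 RPKM. POLD4, the smallest subunit of polymerase delta, averaged 3.23 ± 0.278 RPKM in HCT-15 and 4.09 to 26.0 RPKM in the other lines. Of the 25 repair and polymerase genes 12 were called higher and 10 lower, with a median of −0.01.

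ABCB1 (Entrez 5243, chromosome 7), which encodes the efflux pump P-glycoprotein, was high in HCT-15 and in COLO 320. It had 64.9, 65.0 and 66.4 RPKM in the HCT-15 libraries, against 71.6 ± 3.26 RPKM in COLO 320 and 0.0330 to 0.930 RPKM as means of the other 4 lines. HCT-15 and COLO 320 did not differ past the threshold (log2 difference −0.13, adjusted p = 0.0773). The difference from the mean of the 5 lines was 4.97 ± 0.05 (SE) and was 5.53 or more against each of the 4 low lines.

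ABCB6, a porphyrin transporter, went the other way. It had 0.454, 0.574 and 0.534 RPKM in the HCT-15 libraries and 6.74 to 14.5 RPKM in the other 15 (gap −2.89). ABCA3, a lipid transporter, averaged 10.1 ± 0.436 RPKM in HCT-15, 17.6 ± 0.317 RPKM in COLO 320 and under 1 RPKM in the other lines, so both ABCB1 and ABCA3 were shared with COLO 320. ABCC2, an efflux pump for conjugates, averaged 0.118 ± 0.0082 RPKM in HCT-15, against 9.51 RPKM in HCT 116 and 16.2 RPKM in COLO 205, and under 0.2 RPKM in the rest. Of 18 transporters tested, 6 were called higher and 10 lower, with a median of −0.19.

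MHC class I molecules present peptides at the cell surface as a heavy chain paired with B2M, after the peptides are cut by immunoproteasome subunits and carried by TAP. B2M (Entrez 567, chromosome 15) had 73.2, 70.7 and 70.1 RPKM in the HCT-15 libraries, against 243 ± 3.3 in HCT 116, 258 ± 9.6 in SW 480, 435 ± 2.9 in HT-29, 997 ± 19 in COLO 205 and 319 ± 1.4 in COLO 320 (SD, n = 3). All 3 HCT-15 libraries lay below the lowest other library, 240.3 RPKM, and the gap was −1.76 (largest adjusted p = 9.52e-19). Of 22 genes tested in the list, 17 were called higher and 4 lower, with a median of 0.50. Called lower beside B2M were ERAP1, an aminopeptidase that trims peptides (−1.13), the immunoproteasome subunit PSMB10 (−0.58) and the transcription factor IRF1 (−0.13). ERAP1 averaged 4.08 ± 0.124 RPKM in HCT-15 and 3.20 to 51.3 RPKM as line means elsewhere. B2M was the only gene of the list set apart.

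HLA-C, a heavy chain, averaged 117 ± 0.859 RPKM in HCT-15, below HCT 116, SW 480 and COLO 205 (130.2 to 213 RPKM) and above HT-29 and COLO 320. Its difference from the mean, 1.23, rests on COLO 320, where HLA-C averaged 1.74 ± 0.24 RPKM. Without COLO 320 it was 0.11, and against the median of the 5 lines it was −0.15. TAP1, the peptide transporter, averaged 21.1 ± 0.164 RPKM in HCT-15 and 2.14 to 17.0 RPKM elsewhere. The immunoproteasome subunit PSMB8 averaged 14.7 ± 0.281 RPKM in HCT-15, between 36.98 RPKM in COLO 205 and 0.0712 RPKM in HCT 116.

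Interferon-stimulated genes were divided. Of 33 tested, 18 were called higher and 13 lower in HCT-15, with a median of 0.34, and 11 were at least 2-fold higher against 4 that were at least 2-fold lower. Among all genes tested 39.2% were called higher and 47.0% lower, and 6.19% and 9.84% were at least 2-fold higher and lower. IFITM3, a membrane protein that blocks virus entry, had 268, 276 and 276 RPKM in the HCT-15 libraries and at most 128 RPKM in the other 15 (gap 1.102). IFITM2 averaged 154 ± 3.11 RPKM in HCT-15, below SW 480 at 194 ± 6.2 RPKM and above the other 4 lines, and reads of these close relatives can be assigned to the wrong copy. HERC6, a ubiquitin ligase of the interferon response, averaged 9.93 ± 0.222 RPKM in HCT-15 and 1.35 to 3.09 RPKM in the others (gap 1.54). BST2, the tether of budding viruses, averaged 0.0370 ± 0.0358 RPKM in HCT-15, from 3 reads, and 0.365 to 63.8 RPKM in the other lines.

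Of 17 NF-kB targets and chemokines, 11 were called higher and 4 lower, with a median of 0.50. ICAM1, an adhesion receptor for leukocytes, averaged 30.2 ± 0.499 RPKM in HCT-15, 16.3 ± 0.72 RPKM in SW 480 and at most 1.59 RPKM in the other lines. The chemokine CXCL16 averaged 48.3 ± 0.311 RPKM in HCT-15 and 1.83 to 24.7 RPKM elsewhere. CXCL5, a neutrophil chemokine, was set apart at a low level, 1.69 ± 0.170 RPKM in HCT-15 and at most 0.0103 RPKM as a line mean elsewhere.

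Junction genes were on balance higher and mesenchymal genes lower in HCT-15. Of 33 cell junction genes tested, 24 were called higher and 8 lower, with a median of 0.84. Of 13 mesenchymal genes tested out of 21 listed, 2 were called higher and 11 lower, with a median of −1.70. VIM, ZEB1, ZEB2 and MMP2 averaged 0.046 RPKM or less in HCT-15. They passed the filter through other lines only, which set their lower calls. CDH1, encoding E-cadherin, had 125, 126 and 126 RPKM in the HCT-15 libraries. It averaged 14.6 ± 0.35 in HCT 116, 13.9 ± 0.28 in SW 480, 92.9 ± 3.6 in HT-29, 144 ± 2.5 in COLO 205 and 0.00736 ± 0.0074 in COLO 320 (SD, n = 3). HCT-15 was thus near HT-29 and COLO 205, and its difference from the mean, 2.88 ± 0.02 (SE), came from the other 3 lines and was 1.61 without COLO 320.

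OCLN, a strand protein of tight junctions, was the junction gene set apart. It had 8.93, 9.38 and 9.03 RPKM in the HCT-15 libraries and 0.488 to 3.45 RPKM in the other 15 (gap 1.31). CLDN7 averaged 137 ± 1.99 RPKM in HCT-15 and EPCAM, an adhesion protein of epithelial cells, averaged 469 ± 6.77 RPKM. COLO 320 had 0.0402 RPKM of CLDN7 and 1.37 RPKM of EPCAM, and COLO 205 had 121 and 808 RPKM of them. Without COLO 320 the differences from the mean were 0.82 in place of 2.25 for CLDN7 and 0.40 in place of 1.91 for EPCAM. CLDN2, which forms cation channels in tight junctions, averaged 18.95 ± 1.38 RPKM in HCT-15, 27.0 ± 0.14 RPKM in HT-29 and at most 2.13 RPKM in the other lines. The splicing factor ESRP1 and the claudin CLDN1 were lower in HCT-15, at −2.03 and −1.41 on the log2 scale.

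VIM, the intermediate filament of mesenchymal cells, gave 3 reads in the HCT-15 libraries together, a mean of 0.0168 ± 0.0173 RPKM. SW 480 and COLO 320 had 412 ± 9.1 and 520 ± 1.7 RPKM, and HCT 116, HT-29 and COLO 205 had 1.67, 0.350 and 0.228 RPKM. HCT-15 was below each of these line means, by 0.45 or more on the log2 scale, but single libraries overlapped. TGFBI averaged 0.142 ± 0.0484 RPKM in HCT-15, like HCT 116 (0.183 ± 0.029 RPKM) and COLO 320 (0.0796 ± 0.032 RPKM), against 25.7 to 106 RPKM in SW 480, HT-29 and COLO 205. NT5E, the ecto-enzyme CD73, averaged 0.619 ± 0.0384 RPKM in HCT-15 and 18.7 to 27.2 RPKM in every other line but COLO 320, where it was 0.00288 RPKM. The exception in the list was TAGLN, an actin-binding protein of smooth muscle, which had 13.9, 13.04 and 13.9 RPKM in the HCT-15 libraries and at most 3.51 RPKM in the other 15 (gap 1.89).

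Genes of the mature colon lining were mostly low, and several of them were as low in some of the other lines. Of 26 mucin and goblet cell genes listed, 14 passed the filter on low values, of which 1 was called higher and 13 lower, with a median of −1.17. A gene near 0 in HCT-15 could pass that filter only through a line in which it was high, so for such genes a lower call was set by the filter. The same holds for the mesenchymal genes, of which 13 of 21 were tested, and for genes near 0 in HCT-15 in any other list. GCNT3, a mucin glycosyltransferase, averaged 0.0212 ± 0.0092 RPKM in HCT-15, 192 ± 3.0 RPKM in HT-29, 47.5 ± 0.53 RPKM in COLO 205 and under 0.5 RPKM in the other 3 lines. The trefoil peptide gene TFF3 averaged 0.0899 ± 0.0228 RPKM in HCT-15, 83.8 ± 1.5 RPKM in COLO 205, 3.14 ± 0.36 RPKM in HT-29, 0.0365 RPKM in SW 480 and 0 in HCT 116 and COLO 320. Its difference of −1.83 from the mean of the 5 lines thus rests on COLO 205 and HT-29, and against their median it was 0.14.

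Of 22 enterocyte genes tested out of 37 listed, 4 were called higher and 17 lower, with a median of −0.71. Among the lower ones FABP1, FABP2, CEACAM1, CEACAM5, CEACAM6, FABP6, GUCA2A and CDHR2 averaged 0.0487 RPKM or less in HCT-15. They passed the filter through other lines only, which set their lower calls. The lectin LGALS4 averaged 0.148 ± 0.0444 RPKM in HCT-15, 497 ± 9.7 RPKM in HT-29 and 203 ± 5.2 RPKM in COLO 205, but was also low in HCT 116 (0.181 RPKM), SW 480 (0.661 RPKM) and COLO 320 (0.0366 RPKM). CA2, a carbonic anhydrase, was among the 4 higher, at 15.7 ± 0.118 RPKM in HCT-15, close to HCT 116 (19.1 ± 0.56 RPKM) and HT-29 (13.6 ± 0.68 RPKM). Of 12 keratins, 4 were called higher and 8 lower, with a median of −0.99. The lower calls of KRT5, KRT6A, KRT6B, KRT20 and KRT23, at 0.0258 RPKM or less in HCT-15, were set by the filter in the same way. KRT20, a marker of mature colon cells, averaged 0.0258 ± 0.0300 RPKM in HCT-15, from 4 reads, 141 ± 2.2 RPKM in HT-29 and under 1 RPKM in the other 4 lines. KRT23 averaged 0.0162 ± 0.0165 RPKM in HCT-15, 509 ± 4.9 RPKM in SW 480, 1.12 to 19.04 RPKM in HCT 116, HT-29 and COLO 205, and 0 in COLO 320. No gene of these 3 lists was set apart.

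Among the transcription factors of the intestine, 10 of 22 tested were called higher and 11 lower (39.2% and 47.0% of all genes), with a median of −0.09. CDX2, which sets intestinal identity, had 40.3, 41.1 and 42.4 RPKM in the HCT-15 libraries, against 8.69 ± 0.47 in HCT 116, 10.9 ± 0.84 in SW 480, 6.35 ± 0.20 in HT-29, 0.330 ± 0.12 in COLO 205 and 1099 ± 7.6 in COLO 320 (SD, n = 3). HCT-15 was thus second to COLO 320 and 1.88 or more above the other lines on the log2 scale. GATA6, a zinc finger factor of gut endoderm, averaged 15.8 ± 0.0614 RPKM in HCT-15, near HT-29 (17.0 ± 0.17 RPKM) and COLO 205 (12.99 ± 0.52 RPKM). FOXA1 averaged 17.5 ± 0.224 RPKM in HCT-15 and 60.7 ± 1.3 RPKM in HT-29, and was 2.36 RPKM or less in the other lines. PPARG, a nuclear receptor of lipid storage and colon cell maturation, was the factor set apart, at 0.131, 0.313 and 0.267 RPKM in the HCT-15 libraries and 2.03 to 49.7 RPKM in the other 15 (gap −1.89).

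The HOX genes, which record position along the body axis, had 13 of 37 called higher and 19 lower, with a median of −0.22. HOXB9 averaged 83.1 ± 0.58 RPKM in HCT-15, 115 ± 0.79 RPKM in HT-29, 37.5 ± 1.8 RPKM in SW 480, 19.1 ± 0.94 RPKM in HCT 116 and under 1.5 RPKM in COLO 205 and COLO 320. HOXC9 averaged 0.120 ± 0.0627 RPKM in HCT-15, like COLO 205 at 0.124 ± 0.062 RPKM, and 4.14 RPKM or more in HCT 116, SW 480 and COLO 320. No HOX gene was set apart in HCT-15.

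**Figure D3:**
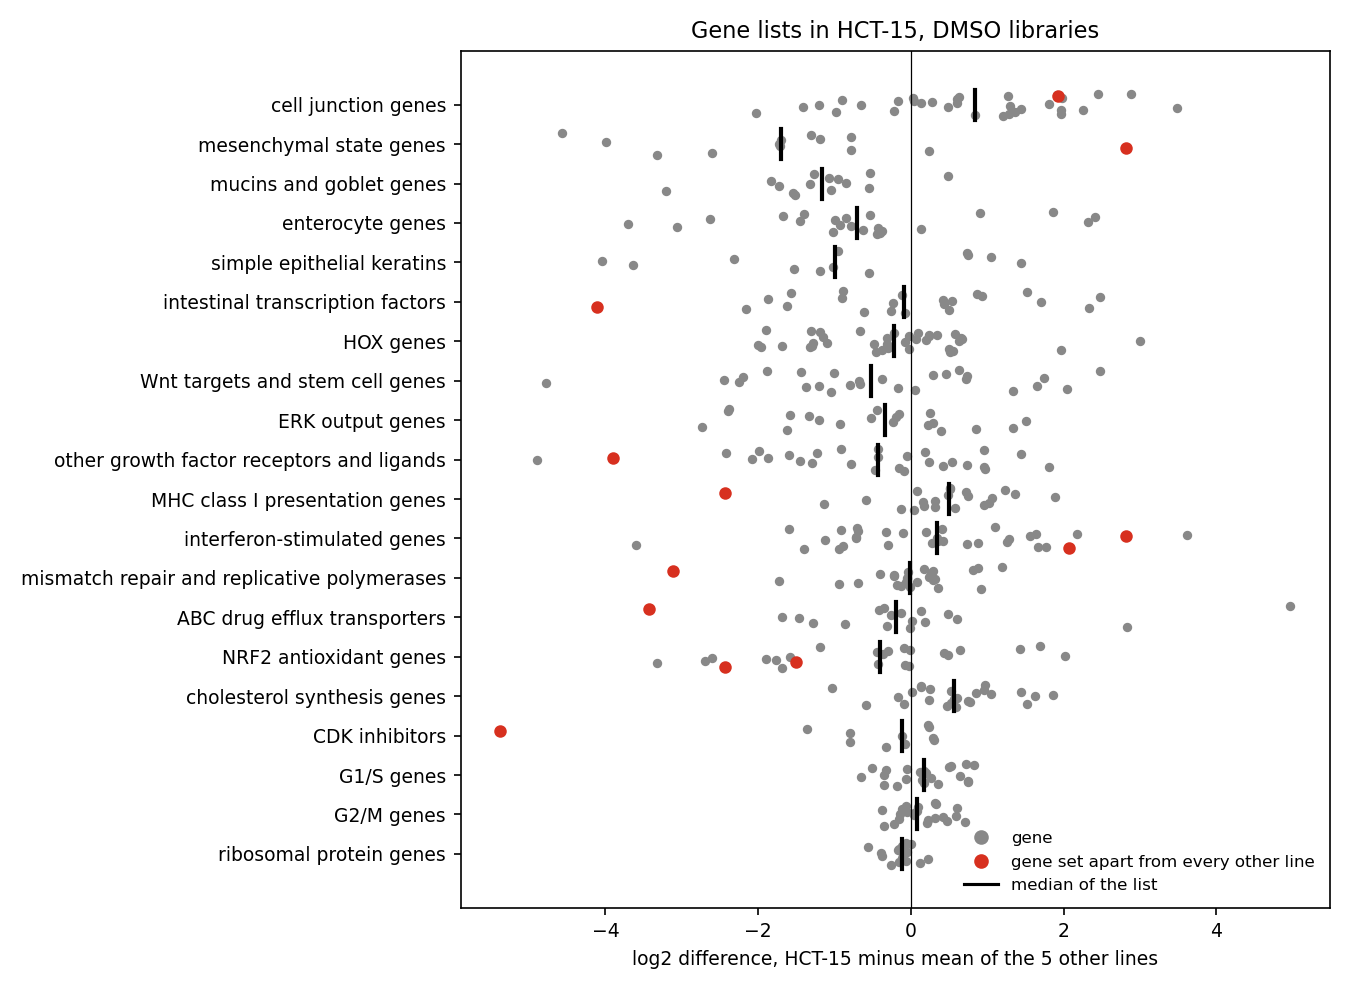
Log2 difference of each tested gene, HCT-15 minus the mean of the 5 other lines (horizontal axis), for 20 gene lists, with genes set apart from every line in red and the list median as a black bar. Junction genes have a median of 0.84 and mesenchymal genes −1.70, while MSH6, B2M, CDKN2A and ABCB6 lie apart from the rest of their lists on the low side.

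Wnt signalling in colon cells runs through beta-catenin and TCF factors and sustains stem cell genes. Of 26 Wnt target and stem cell genes, 10 were called higher and 15 lower (39.2% and 47.0% of all genes), with a median of −0.52. CD44, a hyaluronan receptor, had 0.366, 0.286 and 0.372 RPKM in the HCT-15 libraries, against 29.3 to 80.8 RPKM as means of HCT 116, SW 480, HT-29 and COLO 205 and 0.634 ± 0.074 RPKM in COLO 320. It was thus lower in HCT-15 than in each line, but the gap to COLO 320 was −0.43. PROM1, the stem cell antigen CD133, averaged 0.0189 ± 0.0089 RPKM in HCT-15, close to SW 480 (0.0210 RPKM) and COLO 320 (0.0408 RPKM).

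Other members were higher in HCT-15. ASCL2, a transcription factor of intestinal stem cells, had 37.8, 39.1 and 38.1 RPKM in the HCT-15 libraries and averaged 34.0 ± 2.2 RPKM in COLO 205, 20.2 ± 1.6 in SW 480, 12.3 ± 0.35 in COLO 320, 3.05 ± 0.30 in HT-29 and 0.00721 ± 0.012 in HCT 116 (SD, n = 3). BMP4, a ligand of the TGF-beta family, averaged 183 ± 0.909 RPKM in HCT-15 and 3.99 to 152 RPKM in the others, so HCT-15 was the highest line with a gap of 0.26. MYC averaged 86.4 ± 1.11 RPKM in HCT-15. It was above SW 480 (75.8 ± 1.6 RPKM) and COLO 205 (64.0 ± 0.34 RPKM) and below HT-29 (109 ± 1.5 RPKM), HCT 116 (189.8 ± 5.2 RPKM) and COLO 320 (1849 ± 13 RPKM). Its difference from the mean, −1.05, was −0.21 without COLO 320.

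Feedback and other output genes of the ERK pathway were called higher in 7 and lower in 13 of 20 cases (39.2% and 47.0% of all genes), with a median of −0.34. DUSP6, a phosphatase of ERK, had 4.96, 4.80 and 4.31 RPKM in the HCT-15 libraries, against 26.1 to 272 RPKM as means of HCT 116, SW 480, HT-29 and COLO 205 and 0.837 ± 0.034 RPKM in COLO 320. DUSP4 averaged 0.540 ± 0.134 RPKM in HCT-15, between COLO 320 (0.00162 RPKM) and HT-29 (4.35 ± 0.21 RPKM). HMGA2, a chromatin protein, averaged 4.45 ± 0.363 RPKM in HCT-15, below every other line (5.15 to 51.4 RPKM), with a gap of −0.19 to COLO 205. The cell cycle gene CCND1 (193 RPKM) and the early response gene EGR1 (16.8 RPKM) were higher than the mean of the 5 lines, by 1.34 and 1.51.

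Of 11 EGFR ligands, ERBB receptors and their regulators, 6 were called higher and 4 lower, with a median of 0.45. LRIG1, which restrains ERBB receptors, was set apart, at 0.256, 0.193 and 0.289 RPKM in the HCT-15 libraries and 1.43 to 14.8 RPKM in the other 15 (gap −1.39). EREG, the ligand epiregulin, averaged 26.9 ± 0.274 RPKM in HCT-15, near HT-29 (29.3 ± 1.1 RPKM) and far below HCT 116 (227 ± 3.9 RPKM). ERBB3 averaged 25.5 ± 0.493 RPKM in HCT-15, below HT-29 (47.6 ± 0.23 RPKM) and COLO 205 (36.9 ± 0.93 RPKM), and its difference from the mean was 1.33, or 0.35 without COLO 320, which had 0.186 RPKM. Among 28 other growth factor genes, 10 were called higher and 17 lower, with a median of −0.43, and FGFR4, described above, was set apart.

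In the TGF-beta, BMP and ID list 13 of 27 genes were called higher and 13 lower (39.2% and 47.0% of all genes), with a median of 0.05. ACVR1B, a receptor of activin, was set apart, at 4.59, 4.69 and 4.19 RPKM in the HCT-15 libraries and 9.61 to 18.96 RPKM in the other 15 (gap −1.05). BMP7 averaged 0.0496 ± 0.0056 RPKM in HCT-15, like HT-29 (0.0538 RPKM), against 56.2 RPKM or more in SW 480 and COLO 205. SKIL, a repressor of SMAD proteins, averaged 1.38 ± 0.037 RPKM in HCT-15 and 3.01 to 17.4 RPKM in the others (gap −0.90). SMAD4, the shared mediator of the pathway, averaged 10.05 RPKM in HCT-15, within the range of 0.282 to 19.3 RPKM. GDF15, a stress-induced member of the family, averaged 43.0 ± 0.51 RPKM in HCT-15, near HCT 116 (48.2 ± 8.9 RPKM) and HT-29 (38.8 ± 1.4 RPKM).

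Of 18 Notch genes 5 were called higher and 11 lower, with a median of −0.26. The receptor NOTCH1 had 2.77, 2.86 and 3.02 RPKM in the HCT-15 libraries and 6.25 to 14.6 RPKM in the other 15, a gap of −1.04. Its ligand JAG2 averaged 27.9 ± 0.651 RPKM in HCT-15, just above HCT 116 (25.8 ± 0.53 RPKM), and LFNG, which glycosylates the receptor, averaged 0.953 ± 0.117 RPKM, near COLO 320 (1.02 ± 0.081 RPKM) and below the other lines.

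Genes of cell division differed little. Of 22 G1/S genes 14 were called higher and 8 lower, with a median of 0.17, and of 22 G2/M genes 14 were called higher and 8 lower, with a median of 0.09. None of the 44 reached 2-fold. The largest difference in each list was that of CCNE2, a cyclin of S phase entry, at 22.5 ± 1.11 RPKM in HCT-15 and 8.46 to 18.6 RPKM elsewhere, and that of MKI67, a marker of dividing cells, at 60.0 ± 3.35 RPKM in HCT-15 and 20.9 to 51.5 RPKM elsewhere.

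CDK inhibitors, led by the near absent CDKN2A, had 4 of 11 called higher and 7 lower, with a median of −0.11. CDKN2B, the neighbour of CDKN2A, averaged 0.472 ± 0.0665 RPKM in HCT-15, above COLO 320 (0.0738 ± 0.014 RPKM) and below the other lines (0.902 to 2.78 RPKM), so it was not set apart. CDKN1C averaged 0.646 ± 0.0381 RPKM in HCT-15, with a gap of −0.12 to HT-29. CDKN1A, a CDK inhibitor, had 7.12, 7.26 and 6.54 RPKM in the HCT-15 libraries. HCT 116 and SW 480 had more (57.5 ± 2.2 and 34.1 ± 1.0 RPKM) and HT-29, COLO 205 and COLO 320 had less (2.77, 2.11 and 0.113 RPKM). Its difference from the mean, 0.23, changed sign when HT-29 (−0.01), COLO 205 (−0.09) or COLO 320 (−0.62) was left out, and so has no fixed direction.

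FAS, a death receptor, averaged 10.1 ± 0.291 RPKM in HCT-15, close to SW 480 (11.01 ± 0.81 RPKM) and above the other lines, and DDB2, a damage sensor, averaged 6.39 ± 0.403 RPKM in HCT-15, below each of the others (8.62 to 28.7 RPKM). Of 29 genes of the BCL2 family and the death receptors 15 were called higher and 10 lower, with a median of 0.11. BCL2 itself averaged 1.79 ± 0.0656 RPKM in HCT-15, between 3.14 ± 0.14 RPKM in COLO 320 and 0.544 ± 0.053 RPKM in HCT 116.

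Genes of cholesterol synthesis were higher in HCT-15 as a list, with 20 of 25 called higher and 3 lower and a median of 0.56. FDFT1, squalene synthase, had 183.7, 184 and 185 RPKM in the HCT-15 libraries, against 62.7 ± 1.8 in HCT 116, 25.6 ± 0.67 in SW 480, 86.1 ± 1.0 in HT-29, 104 ± 3.2 in COLO 205 and 95.1 ± 3.8 in COLO 320 (SD, n = 3). Its gap was 0.82, short of the size asked for. MSMO1, a sterol demethylase of the pathway, averaged 68.5 ± 0.448 RPKM in HCT-15 and 10.7 to 34.5 RPKM elsewhere (gap 0.98). INSIG1, the sensor that holds SREBP in the ER, averaged 63.2 ± 1.58 RPKM in HCT-15 and 4.75 to 39.7 RPKM elsewhere, and TM7SF2, a sterol reductase, averaged 35.4 ± 0.664 RPKM and 3.91 to 19.98 RPKM. In each of these 4 genes HCT-15 was the highest line.

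Of 42 drug metabolism genes 14 were called higher and 28 lower, with a median of −0.25. ALDH1A1, a retinal dehydrogenase, averaged 0.236 ± 0.0528 RPKM in HCT-15, like HCT 116 (0.224 RPKM) and SW 480 (0.229 RPKM), and 225 RPKM or more in the other 3 lines. UGT1A10, a glucuronosyltransferase, averaged 0.645 ± 0.0537 RPKM in HCT-15, 159 RPKM or more in HT-29 and COLO 205, 14.7 RPKM in SW 480, 0.147 RPKM in HCT 116 and 0 in COLO 320. The UGT1A genes share exons, so their reads cannot be split cleanly. CYP24A1, which degrades active vitamin D, averaged 0.0548 ± 0.0299 RPKM in HCT-15, near COLO 320 (0.0793 ± 0.018 RPKM) and below the other lines (1.12 to 93.99 RPKM).

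Of 24 genes of the NRF2 antioxidant response 6 were called higher and 15 lower, with a median of −0.40. Those set apart were PIR, an iron-binding nuclear protein, at 2.56, 2.22 and 2.55 RPKM in the HCT-15 libraries and 8.24 to 30.5 RPKM in the other 15 (gap −1.68), and OSGIN1, at 1.064, 1.0999 and 1.162 RPKM in HCT-15 and 3.02 to 6.76 RPKM in the others (gap −1.21). PIR overlaps the readthrough gene PIR-FIGF, and their shared reads cannot be told apart. GPX2, a glutathione peroxidase of the gut, averaged 0.805 ± 0.171 RPKM in HCT-15, near HCT 116 (0.701 RPKM), SW 480 (1.74 RPKM) and COLO 320 (0.0710 RPKM), and 399.9 RPKM or more in HT-29 and COLO 205. Of 9 metallothioneins, small metal-binding proteins, 5 were called higher and 3 lower, with a median of 0.42. MT1M was set apart at 1.91 ± 0.398 RPKM in HCT-15 and at most 0.0909 RPKM in any other library, and MT1E averaged 246 ± 7.31 RPKM in HCT-15, near HCT 116 (278 ± 3.1 RPKM). Metallothionein genes are close copies whose reads can be assigned to the wrong member.

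Of 31 glycolysis and hypoxia genes 19 were called higher and 10 lower, with a median of 0.20. The glucose transporter gene SLC2A3 averaged 64.8 ± 0.403 RPKM in HCT-15, 319 ± 5.0 RPKM in SW 480 and 2.07 RPKM or less in the other lines. ALDOC, a brain-type aldolase, averaged 0.681 ± 0.150 RPKM in HCT-15, below every line mean (1.04 to 13.96 RPKM), and the lactate exporter SLC16A3 averaged 4.98 ± 0.254 RPKM in HCT-15, above COLO 320 (0.180 RPKM) and below the others (31.3 RPKM or more).

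In the remaining lists more genes were called lower than higher, as over all genes tested, of which 47.0% were called lower with a median of −0.06. Of 24 integrin and laminin genes 8 were called higher and 15 lower (median −0.47). Of 11 S100 genes 3 were called higher and 6 lower (median −0.56), with S100A4, a calcium-binding protein linked to cell motility, at 2.41 ± 0.166 RPKM in HCT-15, 1.71 ± 0.077 RPKM in COLO 320 and 148 to 640 RPKM in the other lines. Of 37 cancer-testis antigens listed, 7 passed the filter, and all 7 averaged under 0.05 RPKM in HCT-15, so that each passed through other lines only and its lower call was set by the filter. Among them was MAGEB2, at 0 reads in HCT-15, 121 ± 0.69 RPKM in HCT 116 and under 0.1 RPKM in the other lines. It no longer passed the test without HCT 116 (adjusted p = 0.106). Of 22 neuroendocrine genes listed, 11 passed the filter, of which 3 were called higher and 8 lower (median −0.61). SNAP25 (0 RPKM in HCT-15) and SYT1 (at most 0.0126 RPKM) passed through other lines only, which set their lower calls. DDC (0.0711 to 0.149 RPKM in HCT-15) also passed through other lines only, and against the median of the 5 lines its difference was 0.0765. SCG5, a secretory granule chaperone, was set apart at 3.76 ± 0.275 RPKM in HCT-15 and at most 0.718 RPKM as a line mean elsewhere. With at most 0.835 RPKM in any other library, it passed through HCT-15 only, which set its higher call. Of 16 ribosomal protein genes 2 were called higher and 12 lower (median −0.11), and of 15 housekeeping genes 4 were called higher and 8 lower (median −0.07).

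The labels call all samples colon lines, and most of the defining markers of colon epithelium were present in HCT-15. Summed over 10 markers, they reached 2327 to 2350 RPKM in the HCT-15 libraries, against 1153 to 4539 RPKM in the other libraries. Of the 10, 8 were called higher and 2 lower in HCT-15 (median 0.97). KRT20 was the marker under 0.1 RPKM, and LGALS4 averaged 0.148 RPKM. Some higher calls rest on COLO 320. KRT19 averaged 274 RPKM in HCT-15, below HCT 116, SW 480, HT-29 and COLO 205 (405 to 1011 RPKM), while COLO 320 had 0.0400 RPKM. KRT8 and KRT18 were below SW 480, HT-29 and COLO 205 and above HCT 116 and COLO 320. Markers of fibroblasts summed to 0.293 to 0.364 RPKM in HCT-15, against 0.494 to 15.8 RPKM in the other libraries, with 6 of 9 at 0. COL1A1, COL3A1 and PDGFRB passed the filter, all through other lines, and averaged 0.299, 0 and 0.0224 RPKM in HCT-15. Leukocyte markers summed to 8.08 to 8.43 RPKM in HCT-15, against 3.97 to 1553 RPKM elsewhere (14 markers, 4 at 0). Of the 5 tested, 1 was called higher and 4 lower (median −0.60). PTPRC and LYZ (at most 0.610 RPKM in HCT-15) passed the filter through other lines only, and for PTPRC this set the lower call. CD4, at 0.0441 RPKM in HCT-15 and 1.57 RPKM in COLO 320, could likewise pass only through another line, which would set a lower call. CD14, a receptor for bacterial lipopolysaccharide, made up most of the leukocyte sum, at 5.14, 5.25 and 5.13 RPKM in HCT-15 against at most 1.86 RPKM in the other libraries (gap 1.43), while PTPRC, the pan-leukocyte marker, had 1 read. Endothelial markers summed to 5.61 to 6.57 RPKM in HCT-15, against 0.107 to 29.2 RPKM elsewhere (7 markers, 2 at 0). They came mainly from ESAM (4.90 ± 0.341 RPKM) and from CLDN5, set apart at 1.27 ± 0.190 RPKM. Only these were tested, and both were called higher (median 1.28). CLDN5 had at most 0.172 RPKM in any other library. It passed the filter through HCT-15 only, so its higher call was set by the filter.

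Along the chromosomes, the median difference of HCT-15 from the other lines stood away from 0 for a few. Over 13979 autosomal genes it was −0.04 on the log2 scale. On chromosome 13 it was −0.54 over 263 genes, and 19.8% of these were higher in HCT-15. The 3 HCT-15 libraries gave −0.54 to −0.52. By line it was −1.01 against COLO 205, −0.60 against COLO 320, −0.35 against HT-29, −0.34 against SW 480 and 0.04 against HCT 116. On chromosome 20 the median was −0.43 over 417 genes, ranging from −0.67 against SW 480 to −0.07 against HCT 116.

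Chromosome 18 stood on the other side, at 0.35 over 192 genes, from 0.58 against SW 480 to 0.06 against HCT 116. Chromosome 21 had 0.20 over 134 genes, and the other autosomes lay between −0.12 and 0.11. HCT-15 and HCT 116 were thus within 0.07 of each other on chromosomes 13, 18 and 20, and the differences were from the other 4 lines. These medians are a description, with no test, since genes are not replicates. As background, gain of chromosomes 13 and 20 and loss of 18 are common in colon cancers with chromosomal instability. Copy number was not measured here, and its part in these medians was not tested.

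**Figure D4:**
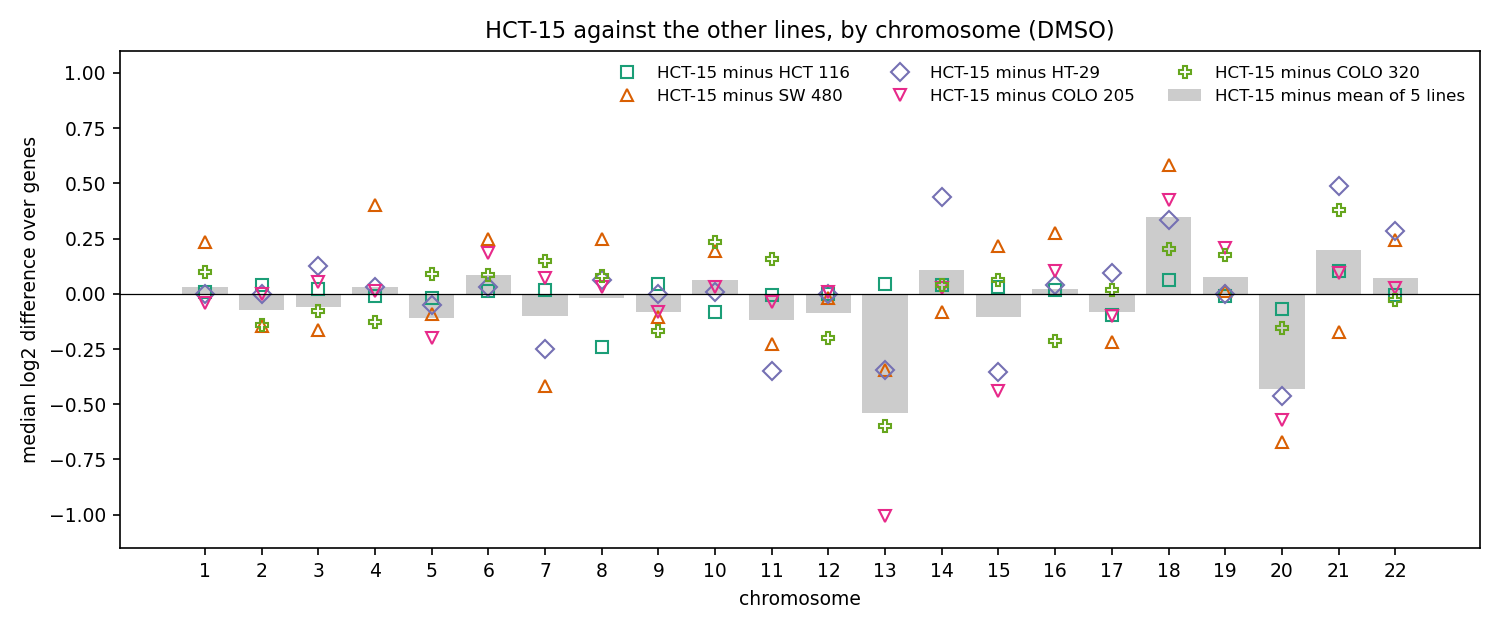
Median log2 difference over the tested genes of each autosome (vertical axis; chromosomes along the horizontal axis), HCT-15 minus the mean of the 5 other lines as grey bars and HCT-15 minus each line as open symbols. Chromosomes 13 (−0.54) and 20 (−0.43) lie lowest and 18 (0.35) highest, while the symbols for HCT 116 stay near 0 on all 3.

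Genes set apart were sometimes neighbours. There were 9 runs of at least 2 adjacent tested genes set apart in the same direction. RASIP1, IZUMO1 and FUT1 lie side by side on chromosome 19 and were all higher in HCT-15. RASIP1, a Ras-interacting protein of vessels, averaged 4.995 ± 0.153 RPKM in HCT-15 and at most 0.640 RPKM elsewhere, IZUMO1, a sperm fusion protein, averaged 3.11 ± 0.163 and at most 0.175 RPKM, and FUT1, the fucosyltransferase of the H antigen, averaged 12.99 ± 0.0716 and at most 3.57 RPKM.

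Also on chromosome 19, TRAPPC2B, ZNF547 and ZNF548 were all lower in HCT-15, with 25, 1 and 1 reads. TRAPPC2B averaged 0.400 ± 0.0602 RPKM in HCT-15 and 3.13 to 7.26 RPKM elsewhere. It overlaps ZNF547 in the annotation, so their reads cannot be told apart there, and the same holds for OLR1 with TMEM52B, a further run. The gaps of ZNF547 (−1.17) and ZNF548 (−1.41) rest on values near the added 0.5 and fell below 1 in size with 1 added instead (−0.70 and −0.87).

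The JQ1 libraries repeated the comparison in other libraries of the same lines, at 0.5 µM for 24 h. In them 115 genes (0.759%) were set apart higher and 88 (0.581%) lower in HCT-15. Of the 94 genes set apart higher in DMSO, 64 were also set apart higher with JQ1, which is 68.1% of the DMSO list and 55.7% of the JQ1 list. Of the 97 lower genes 62 were again set apart, 63.9% of the DMSO list and 70.5% of the JQ1 list. None was set apart in the opposite direction, and 94 of the 94 and 96 of the 97 differed from the mean of the 5 lines with the same sign and an adjusted p under 0.05. The exception was OSGIN1, whose difference from that mean was −1.50 in DMSO and 0.35 with JQ1.

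OLR1 averaged 192 RPKM with JQ1 in HCT-15 and at most 0.329 RPKM in the other lines with JQ1, CDKN2A averaged 0.0351 RPKM against 10.6 to 52.7 RPKM, and MSH6 averaged 3.62 RPKM against 23.9 to 77.7 RPKM. Some gaps were smaller with JQ1. PPARG had a gap of −0.41 with JQ1, since COLO 320 averaged 0.372 RPKM there, and OSGIN1 averaged 8.35 RPKM in HCT-15 with JQ1, within the 1.32 to 16.6 RPKM of the others. Whether the difference between HCT-15 and the other lines itself changed was tested as an interaction over all 36 libraries, and 356 genes (2.35%) passed an adjusted p under 0.05 with a change of at least 2-fold.

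**Figure D5:**
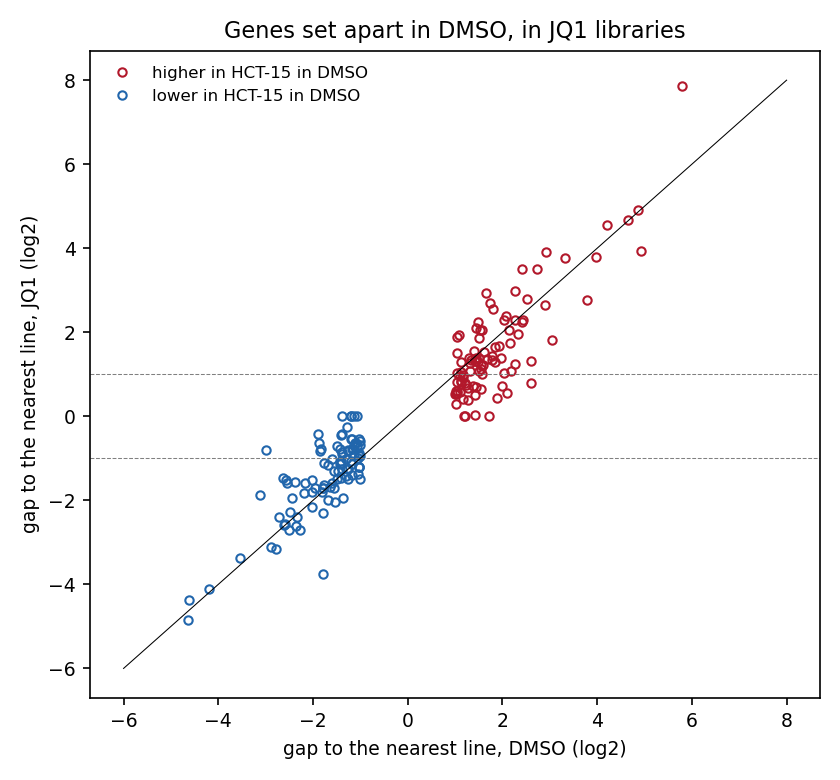
Gap to the nearest line in DMSO (horizontal axis) and in JQ1 libraries (vertical axis), both on the log2 scale, for the genes set apart in HCT-15 in DMSO, with dashed lines at a gap of 1 and −1. Genes higher in HCT-15 (red) and lower (blue) keep their side or reach 0, and those between the dashed lines were not set apart with JQ1. A gap of 0 means that HCT-15 lay within the range of the other lines.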

How the data were processed

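RNA was sequenced from 36 libraries of 6 colon lines, 3 per line with DMSO and 3 with JQ1. The authors deposited 1 table of RPKM values, reads scaled to gene length and library size, for 26468 genes. The submitters' processing notes name GSNAP, DESeq, limma and the assembly NCBIM37, a mouse assembly name. No versions are stated, and coordinates and sequences here come from RefSeq GRCh38.p14, which names 24519 of the genes. No column lacked a sample.

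Values of a gene are whole multiples of the worth of 1 read. Reads recovered that way were whole within 0.01 for 23499 of 23499 genes above 0, and gave read totals, read counts of low genes and a count-based alternative. No source states whether strand was used in counting.

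Genes with at least 1 RPKM in at least 3 of the 18 DMSO libraries were tested (15145, of which 205 repeat the values of another gene). Values were used as log2(RPKM + 0.5), so fold changes of low genes are understated. The test was limma 3.58.1 in R 4.3.3 with 1 mean per line, the contrast of HCT-15 with the equally weighted mean of the 5 other lines, a trended prior (12 residual and 2.99 prior degrees of freedom) and Benjamini-Hochberg adjustment over all 15145 genes. Each gene also had 5 pairwise contrasts. Set apart means the same sign in all 5, each with adjusted p under 0.05, and at least 1 on the log2 scale to the nearest line. The script was tested on simulated data. Intervals were not attached to low values. Where HCT-15 had 0 reads, the limit used was 3 reads at 95%, for counting error only. Pairs of replicate libraries differed by more than sampling noise (chi-square per gene 1.22 to 3.2), so each counted as 1.

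Genes were named by rule: the 15 higher and the 15 lower with the largest gap, up to 4 per list by size of difference among those called, list members set apart, runs of neighbours, genes near 0 in HCT-15, and a fixed set that included ABCB1, MSH6, POLE, B2M, CDX2, CDH1, VIM, MYC and CDKN1A. A few genes of the rule are not reported here. Genes with no symbol, genes that repeat another and sex-linked marker genes were left out of the rule. Other list members named beside these (CCND1, EGR1, SMAD4, MSH3, ESRP1, CLDN1) were chosen after their values were seen. The lists and the choice of HCT-15 were made with earlier results of these data known. Tables and plots were made with Python 3.11.15, pandas 2.3.3, numpy 2.4.6 and matplotlib 3.10.9. Alternatives covered the pseudocount, the filter, scaling, the read-count fit, lines and libraries left out, the gap size and the line as the unit.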

Additional observations from a re-analysis of the deposited data

Results flagged for a closer look

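For 32 of 197 named genes the difference between HCT-15 and the 5 other lines was itself different with JQ1, by limma's interaction term over all 36 libraries (adjusted p under 0.05 and at least 2-fold, against 2.35% of all genes tested). Values are the JQ1 difference minus the DMSO difference on the log2 scale. Whether HCT-15 or the other lines changed was not tested, and the named genes were chosen from the DMSO libraries, which enter both sides of this term.

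The term was negative for 13 genes. Those set apart higher in DMSO were GGT6 (−2.641), TMEM52B (−1.714), CXCL5 (−1.563), CCL26 (−1.461), GDPD3 (−1.454) and C4BPB (−1.154). H2AJ (−1.065) was set apart lower in DMSO. Others were PSMB8 (−1.602), ASCL2 (−1.444), IFITM1 (−1.4), CLDN2 (−1.295), HOXD9 (−1.097) and GDF15 (−1.013).

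It was positive for 19 genes. Those set apart lower in DMSO were MIR1204 (2.243), OSGIN1 (1.851), FGFR4 (1.397), PPARG (1.209), MAOA (1.132), ST6GAL1 (1.059) and PLIN2 (1.022). SH3GL2 (1.449) and IZUMO1 (1.098) were set apart higher in DMSO. The rest were CDKN1A (2.079), DUSP6 (1.913), CYP24A1 (1.632), IGFBP3 (1.602), INSIG1 (1.418), FGF19 (1.408), KRT23 (1.357), CD68 (1.238), CEACAM1 (1.214) and MT1G (1.048).

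CDKN1A averaged 60.05 RPKM in HCT-15 with JQ1, against 88.0, 45.7, 14.7, 4.41 and 0.395 RPKM in HCT 116, SW 480, HT-29, COLO 205 and COLO 320 with JQ1.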

How the results depend on the processing

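Of 8807 values of named genes under 34 alternatives that test libraries, 8789 kept their direction and their side of the threshold, 14 no longer passed and 4 changed sign. Counts moved more. Without HCT 116, the line nearest to HCT-15, 160 genes were set apart higher and 161 lower, of which 109 and 110 also were with JQ1. Without SW 480, 156 were set apart higher (103 also with JQ1), and without COLO 320, 206 lower (119 also with JQ1). With 0.1 added in place of 0.5, 2240 genes were at least 2-fold lower and 162 were set apart lower (105 also with JQ1). With a filter of at least 5 RPKM, 52 were set apart higher (35 also with JQ1). The fit on recovered reads gave 1637 genes at least 2-fold higher and 2330 lower, and 248 set apart lower (145 also with JQ1). With a gap of at least 2, 29 and 26 remained in count. The causes were not tested. With the line as the unit, 0 genes passed by limma (smallest adjusted p 0.348). At an unadjusted p under 0.05 there were 97 higher and 121 lower, and an exact test of 1 line among 6 cannot go below 0.167.

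Against the median of the 5 lines in place of their mean, 169 of 197 named differences moved by more than the replicate SD, 20 did not and 8 changed sign. The median move was 0.355 on the log2 scale, and 42 moved by more than 1, so many sizes depend on this choice. The sign changed for APCDD1 (0.84), COL3A1 (0), DDC (0.0765), HLA-C (−0.15), PEG10 (0.0178), PHGR1 (0.33), PTPRC (0.0044) and TFF3 (0.14). It changed for CDKN1A without HT-29 (−0.00989), COLO 205 (−0.0929) or COLO 320 (−0.62), and for PTPRC without COLO 320 (0.0029).

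With 1 library left out, 5735 to 5947 genes were called higher and 6909 to 7138 lower, 933 to 945 and 1490 to 1504 of them at least 2-fold, and 91 to 96 and 93 to 99 were set apart. Scaling to total reads gave 6944 higher and 6168 lower, quantile scaling 6920 and 6080, and centring on the median 6590 and 6418, against 5932 and 7120 as reported, so which direction held more calls depends on the scaling. Same-numbered libraries of different lines did not deviate together (r −0.0558 to 0.0411 over 15 pairs). With the replicate block 5617 genes were called higher and 6738 lower, 928 and 1505 at least 2-fold, and 99 and 96 set apart, of which 66 and 59 also were with JQ1.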
